A study of Drosophila melanogaster with 9 samples.

Results

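Translation initiation factors were followed in fly muscle as all genes whose annotated symbol begins with eIF and a digit. Of the 11982 genes measured, 40 met this rule, with 1 probe set standing for each gene, the brightest on average across the 9 arrays. RNA came from the skeletal muscle of male *Drosophila melanogaster*, with 3 independent biological replicates per group and 1 Affymetrix Drosophila Genome 2.0 array per replicate. The control group is labelled as control flies, with no genotype given. The Foxo group carried a UAS-Foxo transgene and the Mnt group a UAS-Mnt transgene, each overexpressed in muscle only, per the series title. RNA was taken from at least 15 males per group, so an array holds pooled flies, which were collected within 24 hours of eclosion and kept at 25 °C. The sources used here give neither the muscle driver nor the age at RNA extraction. Foxo is a transcription factor that insulin signalling keeps out of the nucleus, and Mnt is a repressor that pairs with Max and opposes Myc. The comparisons ask how the transcripts of the initiation machinery stand when muscle overexpresses a growth repressor.

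Initiation brings the ribosome to the start codon of an mRNA. The eIF4 factors bind the cap and unwind the leader, eIF3 bridges the mRNA and the small ribosomal subunit, and eIF2 carries the initiator tRNA, with eIF2B reloading eIF2 with GTP after each round. eIF1 and eIF5 guard and commit the start codon choice, and eIF5B joins the large subunit. TOR and Myc signalling control this machinery in growing tissue, largely through phosphorylation and through the supply of its parts. Drosophila also has extra gene copies for several factors, and among these eIF4E3 and eIF4G2 are known for their roles in spermatogenesis.

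Values are log2 signals that the authors made with RMA, and the 3 values of a group are given in the order of replicates 1, 2 and 3. The foxo signal lay at 9.42, 9.50 and 9.05 in the controls, at 11.95, 9.52 and 10.22 in the Foxo arrays and at 9.52, 9.19 and 9.34 in the Mnt arrays. The second Foxo value is 1.15 times the control mean, so this array is called the array labelled Foxo 2. The Mnt signal lay at 8.41, 8.57 and 8.45 in the controls, at 8.54, 8.41 and 8.50 in the Foxo arrays and at 9.85, 11.69 and 11.71 in the Mnt arrays. Transcripts of other male tissues varied between arrays of the same group. A testis score, the mean log2 signal of the 26 measured genes of a list of 29 testis genes, ranged from 4.96 to 6.20 in the controls, from 6.21 to 6.93 in the Foxo arrays and from 4.96 to 6.64 in the Mnt arrays. The array labelled Foxo 2 had the highest score and Mnt replicate 2 the lowest, and 21 of the 26 testis genes were higher in the former. An accessory gland score of 15 genes was 9.59 in Foxo replicate 3 and at most 5.52 elsewhere, while the mean of 21 sarcomere and flight muscle genes stayed between 12.82 and 13.23.

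None of the 40 initiation factor genes passed limma's adjusted p of 0.05 in any comparison, in either direction. The overexpressed genes missed this threshold as well when their own group was set against the controls. On the log2 scale foxo was up by 1.24 ± 0.52 in the Foxo arrays (limma adjusted p = 0.279). Mnt was up by 2.61 ± 0.43 in the Mnt arrays (limma adjusted p = 0.45). A count of 0 at this threshold therefore does not show that the members were unchanged. For Foxo versus control 0.1% of all 11982 genes passed, for Mnt versus control 0%, and for Foxo versus Mnt 0.134%. At an unadjusted p under 0.05, 8 of 40 members (20%) stood out in Foxo versus control, 6 higher and 2 lower, against 17.8% of all genes. Of all genes, 8.31% were higher and 9.51% lower by this measure. In Mnt versus control there were 4 of 40 (10%), all 4 lower, against 3.54% of all genes, of which 1.58% higher and 1.96% lower. In Foxo versus Mnt there were 4, all higher in Foxo, against 13.4% of all genes, of which 3.98% higher and 9.4% lower. The lowest adjusted p of a member was 0.276, 0.999 and 0.292 in these comparisons, and an F test over the 3 groups also called 0 members, with a lowest adjusted p of 0.376, against 0.0751% of all genes. At an unadjusted p under 0.05 the F test named 4 members (10%), against 12% of all genes. With the testis score in the model 0 members passed as well, against 0.025%, 0% and 0.00835% of all genes in the same order. The count stayed at 0 in each of the fits that left out 1 array, the array labelled Foxo 2 included.

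The medians of the group lay near 0. The median log2 fold change in Foxo versus control was 0.02, with 24 higher and 16 lower, beside -0.06 over all genes, but with each array centred on its median it was -0.09, with 14 higher and 26 lower, beside -0.16 over all genes. In Mnt versus control the median was -0.03, with 17 higher and 23 lower, beside 0.00 over all genes, and after centring -0.07, with 12 higher and 28 lower, beside -0.04. In Foxo versus Mnt it was 0.08, with 30 higher and 10 lower, beside -0.04, and after centring 0.02, with 26 higher and 14 lower, beside -0.10. Both comparisons against control share the 3 control arrays. The 37 genes of cytosolic ribosomal proteins, the other large class of the translation machinery, had medians of 0.02, 0.00 and 0.03 in the same order, and 0 of them passed.

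**Figure D1:**
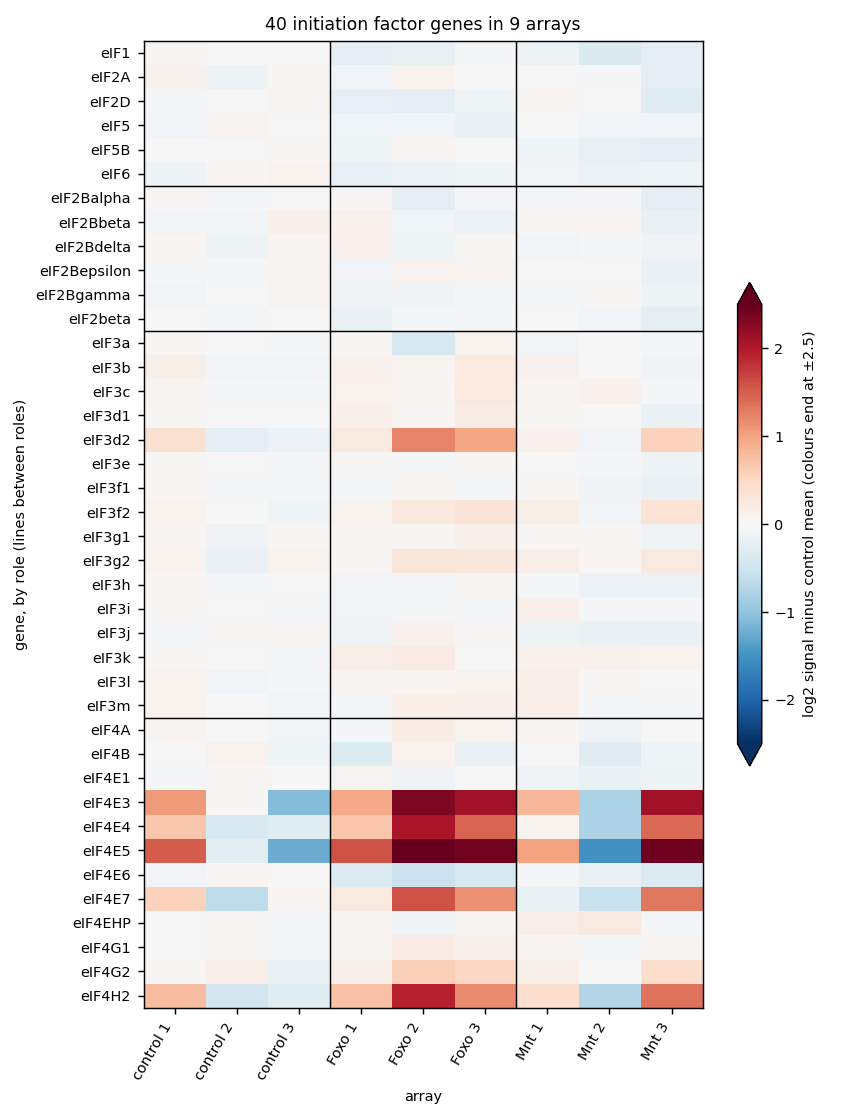
Log2 signal of each of the 40 initiation factor genes (rows, by role) minus its control mean in the 9 arrays (columns); colours end at ±2.5. Most rows are close to 0 in all arrays, while eIF4E3, eIF4E4, eIF4E5, eIF4E7 and eIF4H2 are above their control means in the array labelled Foxo 2, Foxo replicate 3 and Mnt replicate 3 and below them in Mnt replicate 2.

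The members differed widely in how far they varied between arrays. For 33 of the 40 the highest and lowest arrays differed by 0.16 to 0.60 on the log2 scale, or at most 1.51-fold. The other 7, which are eIF3d2, eIF4E3, eIF4E4, eIF4E5, eIF4E7, eIF4G2 and eIF4H2, spanned 0.78 to 4.76. Over all genes, 30.9% spanned more than 0.6. In the 33 steadier genes the 95% interval of the difference never reached beyond -0.69 or 0.50 in Foxo versus control, beyond -0.44 or 0.43 in Mnt versus control, or beyond -0.51 or 0.36 in Foxo versus Mnt. The range over the arrays holds the group differences too, so a limit on it also keeps these intervals narrow, and they are given as a description. The 7 wide-ranging genes all had Foxo and Mnt means above the control mean, and their 95% intervals in Foxo versus control were wide for eIF4E5 (0.03 to 4.79) and narrower for eIF4G2 (0.04 to 0.78). The limit of 0.6 was chosen after the values were seen.

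The cap-binding family of eIF4E held both steady and wide-ranging genes. eIF4E1, the general cap-binding factor that 4E-BP restrains, lay at 11.10, 11.16 and 11.11 in the controls, at 11.19, 11.03 and 11.13 in the Foxo arrays and at 11.02, 10.95 and 10.99 in the Mnt arrays. Every Mnt array was below every control and every Foxo array, and the Foxo and control arrays overlapped. Its log2 fold change was -0.13 ± 0.05 in Mnt versus control (SE, n = 3 per group, limma adjusted p = 0.999, unadjusted p = 0.0316), a difference of 1.10-fold. In Foxo versus control its 95% interval was -0.13 to 0.11. eIF4EHP, a cap-binding repressor that does not bind eIF4G, lay at 7.71, 7.73 and 7.68 in the controls, at 7.78, 7.62 and 7.78 in the Foxo arrays and at 7.87, 7.93 and 7.67 in the Mnt arrays, and all 3 groups overlapped. The second eIF4EHP probe set gave -0.07 in Mnt versus control where the one used gave 0.12, so the sign was not shared.

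Among the other eIF4E copies, eIF4E5 lay at 7.56, 5.80 and 4.81 in the controls, at 7.64, 9.30 and 8.47 in the Foxo arrays and at 7.07, 4.54 and 8.48 in the Mnt arrays. eIF4E3 lay at 7.32, 6.28 and 5.17 in the controls, at 7.20, 8.59 and 8.36 in the Foxo arrays and at 7.09, 5.46 and 8.35 in the Mnt arrays. eIF4E4 lay at 6.97, 5.93 and 6.00 in the controls, at 6.99, 8.33 and 7.75 in the Foxo arrays and at 6.39, 5.53 and 7.72 in the Mnt arrays. In each of these 3 genes the array labelled Foxo 2 was highest, and the lowest was control replicate 3 for eIF4E3 and Mnt replicate 2 for eIF4E4 and eIF4E5. Control replicate 1 and Mnt replicate 3 lay well above the lowest array of their own groups. eIF4E7 lay at 5.0, 3.81 and 4.48 in the controls, at 4.68, 6.01 and 5.58 in the Foxo arrays and at 4.26, 3.87 and 5.75 in the Mnt arrays, highest in the array labelled Foxo 2 and lowest in control replicate 2. The signal was under the array's lower quartile of all genes in 6 arrays for eIF4E7, and in 2 for eIF4E5, control replicate 3 and Mnt replicate 2.

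In Foxo versus control the log2 fold change was 2.41 ± 1.04 for eIF4E5, or 5.33-fold (SE, n = 3 per group, adjusted p = 0.279, 95% interval 0.03 to 4.79). For eIF4E3 it was 1.79 ± 0.79, or 3.46-fold (adjusted p = 0.279), and for eIF4E4 1.39 ± 0.57, or 2.62-fold (adjusted p = 0.279). eIF4E7 had 0.99 ± 0.55 (adjusted p = 0.345). All 3 Foxo arrays lay above all 3 controls in eIF4E4 and eIF4E5 but not in eIF4E3 or eIF4E7, and none of the 4 passed. Without the array labelled Foxo 2 the values were 2.00 for eIF4E5, 1.52 for eIF4E3, 1.07 for eIF4E4 and 0.70 for eIF4E7. The testis score was also higher in the Foxo arrays, and with it in the model the log2 fold changes were 0.03 ± 0.24 for eIF4E5, -0.03 ± 0.10 for eIF4E3, 0.17 ± 0.31 for eIF4E4 and 0.01 ± 0.45 for eIF4E7. The lowest Foxo score (6.21) was above the highest control score (6.20), so score and group cannot be fully separated in this comparison. In Mnt versus control, where the testis score overlapped between the groups, the values were 0.64 ± 1.04, 0.71 ± 0.79, 0.25 ± 0.57 and 0.19 ± 0.55 in the same gene order (each adjusted p = 0.999). With the score in the model they were 0.07 ± 0.19, 0.28 ± 0.08, -0.04 ± 0.24 and -0.04 ± 0.36. In Foxo versus Mnt the eIF4E3 value was 1.08 ± 0.79. With the score in the model the Foxo versus Mnt values were -0.04 ± 0.22, -0.31 ± 0.09, 0.21 ± 0.28 and 0.05 ± 0.41. The eIF4E3 values with the score did not pass (limma adjusted p = 0.9996 and 0.4045). In such pooled tissue, fewer cells of a type and less RNA per cell cannot be told apart.

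**Figure D2:**
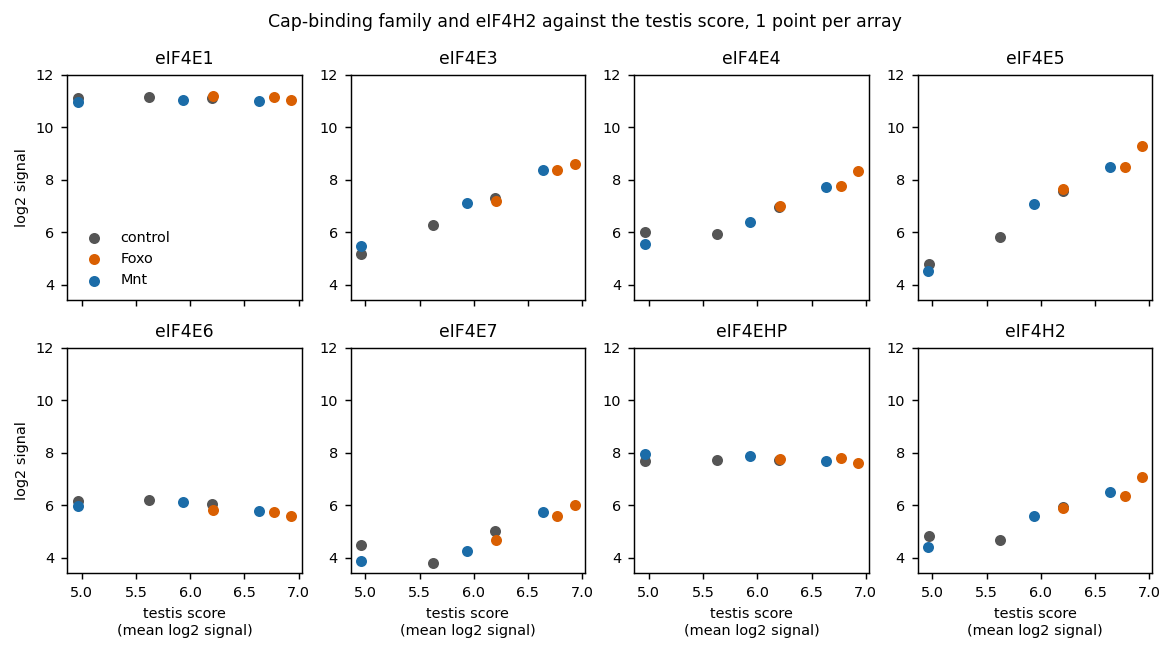
Log2 signal of the 7 measured genes of the cap-binding family and of eIF4H2 (vertical axes, log2) against the testis score (horizontal axes, mean log2 signal of 26 testis genes), with 1 point per array coloured by group. eIF4E3, eIF4E4, eIF4E5, eIF4E7 and eIF4H2 are highest in the array labelled Foxo 2, which has the highest score, while eIF4E1 and eIF4EHP stay level with ranges of 0.23 and 0.32 over the 9 arrays.

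The relation to the testis score was then tested within groups, as a slope fitted with the 3 groups in the model and adjusted over all genes. Of the 40 members, 4 had a slope called, all 4 positive, against 6.23% of all genes, of which 5.73% positive. eIF4E3 gained 1.75 ± 0.06 log2 units per unit of score (SE, 9 arrays, limma adjusted p = 1.2e-05) and eIF4E5 2.29 ± 0.14 (adjusted p = 7.68e-05). eIF4E4 gained 1.17 ± 0.19 (adjusted p = 0.00749) and eIF4H2 1.14 ± 0.19 (adjusted p = 0.00887). The slopes of eIF4E3 and eIF4E5 were called in every alternative that gave a value, including without the array labelled Foxo 2, where they were 1.75 and 2.26. Their size moved with the filter on dim genes: without the dimmest 40% of genes, which leaves 11 of the 26 genes in the score, the slope was 0.86 for eIF4E3, 1.13 for eIF4E5 and 0.55 for eIF4E4. Without the dimmest 20%, which leaves 18, it was 0.78 for eIF4H2. Without both arrays of the lowest score it was 1.80 for eIF4E4 and 1.56 for eIF4H2. Those of eIF4E4 and eIF4H2 lost their call without Mnt replicate 2 (adjusted p = 0.0713 and 0.101) or Mnt replicate 3 (adjusted p = 0.0873 and 0.0951). Of the 40 slopes, 20 were above 0. Among the positive slopes that missed the threshold, the lowest adjusted p values were those of eIF3f2 (0.22 ± 0.06, adjusted p = 0.0608), eIF4G2 (0.28 ± 0.08, 0.0944), eIF4E7 (0.95 ± 0.28, 0.101) and eIF3d2 (0.50 ± 0.15, 0.112). Fitted without the groups, where the slope also takes in group differences, it was called for these 4 as well, 8 members in all. The share of all genes called in that fit was not counted, so the 8 cannot be set against it.

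eIF4E6, another gene of the cap-binding family, had the lowest fold change of the 40 in Foxo versus control. It lay at 6.05, 6.19 and 6.15 in the controls, at 5.80, 5.59 and 5.72 in the Foxo arrays and at 6.11, 5.96 and 5.79 in the Mnt arrays. All Foxo arrays were below all controls, and the Mnt arrays spanned both groups. Its log2 fold change in Foxo versus control was -0.43 ± 0.11, or 1.34-fold lower, with the lowest unadjusted p of the 40 (0.00562, adjusted p = 0.276). Without the array labelled Foxo 2 it was -0.37, and with the testis score in the model -0.32 ± 0.14. Its own slope on the score was -0.10 ± 0.08 (adjusted p = 0.546). The gene is dim, with a mean of 5.93 over the 9 arrays, and the filter on the dimmest 40% of genes left it out. Its Foxo versus control value also moved with the scaling, to -0.53 with each array centred on its median and -0.63 after a further quantile normalization.

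Among the scaffold and helicase factors, eIF4G1, the scaffold that links eIF4E to eIF4A and eIF3, lay at 11.51, 11.52 and 11.44 in the controls, at 11.55, 11.70 and 11.62 in the Foxo arrays and at 11.55, 11.47 and 11.55 in the Mnt arrays. The Foxo arrays lay just above the controls, with a log2 fold change of 0.13 ± 0.05 (adjusted p = 0.277) that was 0.10 without the array labelled Foxo 2. The eIF4G1 value was 0.03 with each array centred on its median, and 0.06 ± 0.07 with the testis score in the model. Its copy eIF4G2, which acts in male meiosis, lay at 8.81, 8.96 and 8.60 in the controls, at 8.92, 9.38 and 9.31 in the Foxo arrays and at 8.93, 8.77 and 9.23 in the Mnt arrays, and its Foxo versus control value was 0.41 ± 0.16 (adjusted p = 0.276). With the testis score in the fit the eIF4G2 value was 0.12 ± 0.13. eIF4A, the helicase itself, lay at 13.08, 12.99 and 12.94 in the controls, at 12.96, 13.20 and 13.10 in the Foxo arrays and at 13.06, 12.92 and 12.99 in the Mnt arrays, and its groups overlapped in all comparisons. eIF4B, which stimulates the helicase, had 4 probe sets, and the one used lay at 11.17, 11.26 and 11.06 in the controls, at 10.82, 11.25 and 10.98 in the Foxo arrays and at 11.18, 10.86 and 11.05 in the Mnt arrays. Its 4 probe sets gave -0.29 to -0.05 in Foxo versus control, while in Mnt versus control 1 probe set gave 0.06 and the other 3, the one used among them, between -0.16 and -0.12.

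eIF4H2, named for the mammalian helicase cofactor eIF4H, lay at 5.91, 4.68 and 4.84 in the controls, at 5.89, 7.09 and 6.33 in the Foxo arrays and at 5.57, 4.42 and 6.50 in the Mnt arrays. The array labelled Foxo 2 was again highest and Mnt replicate 2 lowest, and Foxo overlapped with the controls. In 3 arrays the signal was under the lower quartile of all genes. The log2 fold change in Foxo versus control was 1.29 ± 0.56 (adjusted p = 0.279), 0.96 without the array labelled Foxo 2 and 0.11 ± 0.31 with the testis score in the model. Across all 12 measured eIF4 genes the median log2 fold change in Foxo versus control was 0.27, and with the testis score in the model it was 0.02.

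**Figure D3:**
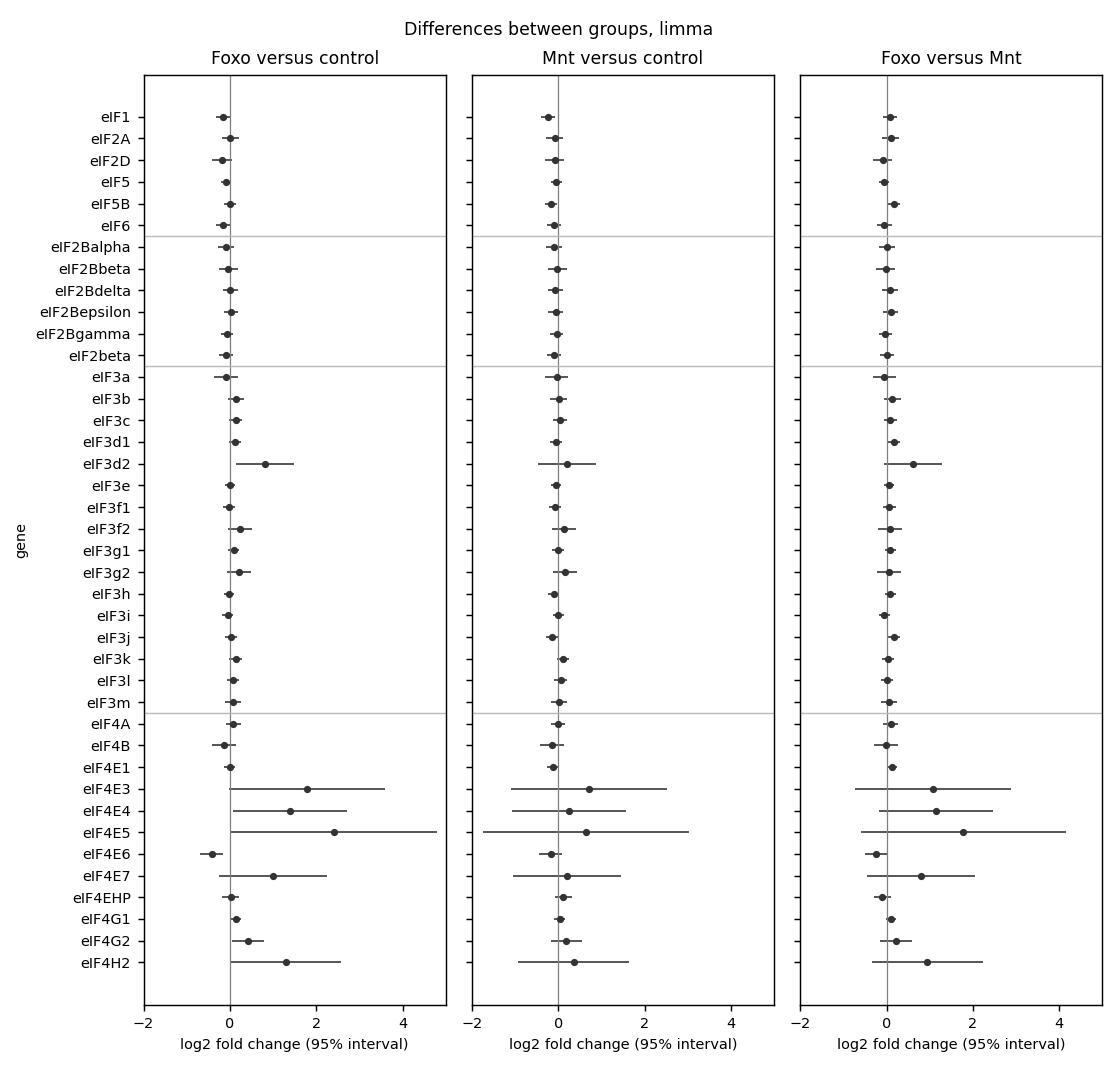
Log2 fold change (points) with its 95% interval from limma (lines) for each of the 40 genes in the 3 comparisons, n = 3 arrays per group, with grey lines between roles. Intervals are narrow and near 0 for most genes and wide for eIF4E3, eIF4E4, eIF4E5, eIF4E7 and eIF4H2.

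eIF3, the largest initiation complex, was measured with 16 genes. Their median log2 fold change was 0.08 in Foxo versus control, 0.01 in Mnt versus control and 0.07 in Foxo versus Mnt. eIF3i, a subunit of WD repeats, lay at 11.20, 11.18 and 11.14 in the controls, at 11.10, 11.12 and 11.14 in the Foxo arrays and at 11.29, 11.12 and 11.12 in the Mnt arrays, with overlapping groups. eIF3j, a loosely bound subunit that helps start codon recognition, lay at 10.83, 10.92 and 10.92 in the controls, at 10.81, 11.00 and 10.91 in the Foxo arrays and at 10.76, 10.73 and 10.72 in the Mnt arrays. All 3 Mnt arrays were below all controls and all Foxo arrays, with a log2 fold change of -0.15 ± 0.06 in Mnt versus control (adjusted p = 0.999, unadjusted p = 0.0311). eIF3k, a peripheral subunit, was the only member with all Mnt arrays above all controls, at 10.07, 10.04 and 10.02 in the controls, at 10.22, 10.26 and 10.04 in the Foxo arrays and at 10.15, 10.15 and 10.12 in the Mnt arrays, and its log2 fold change was 0.10 ± 0.06 (adjusted p = 0.999). The other single-copy subunits, eIF3a, eIF3b, eIF3c, eIF3e, eIF3h, eIF3l and eIF3m, among which eIF3a, eIF3b and eIF3c form the core of the complex, had overlapping groups in each comparison. Their log2 fold changes ran from -0.09 for eIF3a to 0.14 for eIF3b in Foxo versus control and from -0.11 for eIF3h to 0.05 for eIF3l in Mnt versus control.

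Subunits d, f and g of eIF3 have a second gene. eIF3d1, whose product can itself bind the cap in human cells, lay at 10.34, 10.30 and 10.31 in the controls, at 10.43, 10.36 and 10.50 in the Foxo arrays and at 10.35, 10.30 and 10.15 in the Mnt arrays. Its Foxo arrays lay above the controls and the Mnt arrays, with log2 fold changes of 0.11 ± 0.06 against control (adjusted p = 0.348) and 0.16 ± 0.06 against Mnt (adjusted p = 0.332). With each array centred on its median these values were 0.01 and 0.10. With the testis score in the model they were 0.16 ± 0.08 and 0.20 ± 0.08. The second gene eIF3d2 lay at 5.90, 5.28 and 5.36 in the controls, at 5.75, 6.74 and 6.49 in the Foxo arrays and at 5.62, 5.45 and 6.08 in the Mnt arrays, with 0.81 ± 0.29 in Foxo versus control (adjusted p = 0.276). That value was 0.60 without the array labelled Foxo 2 and 0.29 ± 0.25 with the testis score in the model.

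eIF3f1 lay at 10.54, 10.46 and 10.47 in the controls, at 10.44, 10.55 and 10.44 in the Foxo arrays and at 10.51, 10.40 and 10.33 in the Mnt arrays, and its groups overlapped. Its copy eIF3f2 lay at 4.20, 4.12 and 4.0 in the controls, at 4.19, 4.37 and 4.43 in the Foxo arrays and at 4.25, 4.04 and 4.44 in the Mnt arrays, under the lower quartile of all genes in all 9 arrays, with 0.22 ± 0.12 in Foxo versus control (adjusted p = 0.336). With the testis score in the model that value was -0.01 ± 0.09. eIF3g1 lay at 11.04, 10.89 and 11.00 in the controls, at 11.05, 11.03 and 11.09 in the Foxo arrays and at 11.01, 11.01 and 10.88 in the Mnt arrays, where the Foxo arrays were above the Mnt arrays but not above all controls. Its copy eIF3g2 lay at 5.21, 4.94 and 5.20 in the controls, at 5.16, 5.43 and 5.40 in the Foxo arrays and at 5.28, 5.16 and 5.36 in the Mnt arrays, with 0.21 ± 0.12 in Foxo versus control (adjusted p = 0.354). In each of these 3 pairs the second copy spanned more over the 9 arrays than the first, by 1.46 against 0.34 for d, 0.44 against 0.22 for f and 0.48 against 0.21 for g.

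No gene of eIF2 or of its exchange factor eIF2B had an unadjusted p under 0.05 in any comparison. Of the 8 genes of this list 6 were measured, and eIF2alpha, the subunit that stress kinases phosphorylate, and eIF2gamma were not among the members. All 6 had Mnt means below the control means, by 0.02 to 0.10 on the log2 scale. eIF2beta, which contacts eIF5, lay at 9.99, 9.95 and 9.98 in the controls, at 9.80, 9.93 and 9.92 in the Foxo arrays and at 9.97, 9.91 and 9.73 in the Mnt arrays, and its Foxo arrays were below the controls. eIF2Bgamma, which works with the catalytic eIF2Bepsilon, lay at 8.19, 8.27 and 8.34 in the controls, at 8.18, 8.19 and 8.23 in the Foxo arrays and at 8.24, 8.29 and 8.15 in the Mnt arrays, with overlapping groups. Of the other subunits of the exchange factor, eIF2Balpha had its Mnt arrays below its controls, with -0.10 ± 0.08 (adjusted p = 0.999), while eIF2Bbeta, eIF2Bdelta and eIF2Bepsilon had overlapping groups. In Mnt versus control the 95% intervals of these 6 genes lay between -0.29 and 0.20.

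Of the 4 lowest values in Mnt versus control, eIF1 and eIF5B belong to start site selection and subunit joining, beside eIF4E6 and eIF3j. eIF1, which keeps the scanning ribosome from starting at a wrong codon, lay at 12.21, 12.17 and 12.17 in the controls, at 11.94, 11.99 and 12.12 in the Foxo arrays and at 12.05, 11.83 and 11.97 in the Mnt arrays. Its controls were above all Foxo and all Mnt arrays. The log2 fold change was -0.23 ± 0.07 in Mnt versus control, or 1.18-fold lower (adjusted p = 0.999, unadjusted p = 0.0103), and -0.16 ± 0.07 in Foxo versus control (adjusted p = 0.279). eIF5B, the GTPase of subunit joining, lay at 9.68, 9.68 and 9.72 in the controls, at 9.59, 9.76 and 9.69 in the Foxo arrays and at 9.59, 9.51 and 9.45 in the Mnt arrays. Its Mnt arrays were below all others, with -0.18 ± 0.06 in Mnt versus control (adjusted p = 0.999, unadjusted p = 0.0186). The gap to the Foxo arrays was very small, with Mnt replicate 1 at 9.5868 and Foxo replicate 1 at 9.5905. All 6 measured genes of this list had Mnt means below the control means, with a median of -0.09. The eIF1 and eIF5B values ran from -0.29 to -0.17 and from -0.22 to -0.14 over 24 alternatives each. Those of eIF3j and eIF4E1 stayed negative too. These genes had 0 calls by an adjusted p, and each was called only at an unadjusted p under 0.05.

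**Figure D4:**
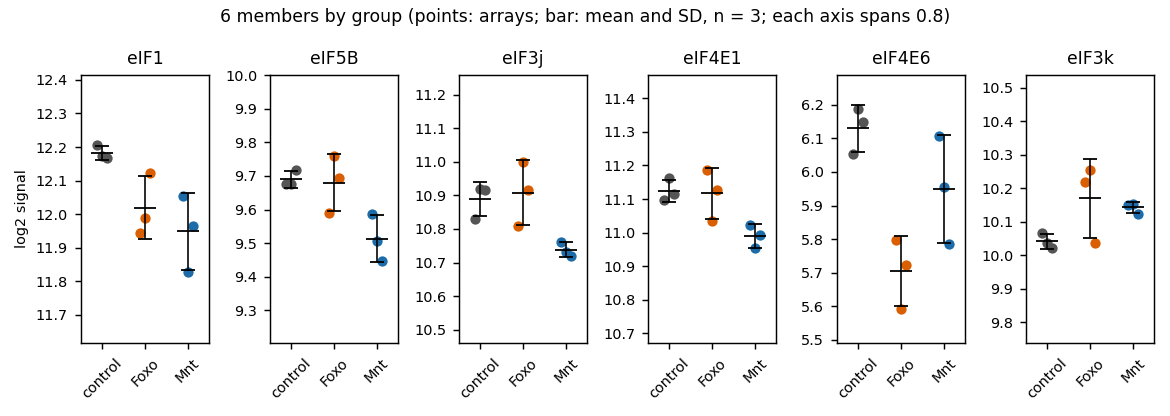
Log2 signal (vertical axes, each spanning 0.8) of 6 initiation factor genes by group; points are arrays, horizontal bars the mean and error bars the SD of 3 arrays. In eIF5B, eIF3j and eIF4E1 the 3 Mnt arrays lie below all others, in eIF1 the controls lie above all others, in eIF4E6 the Foxo arrays lie below the controls, and in eIF3k the Mnt arrays lie above the controls.

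The remaining factors of this step had no unadjusted p under 0.05. eIF5, which triggers GTP hydrolysis by eIF2, lay at 10.40, 10.52 and 10.47 in the controls, at 10.39, 10.40 and 10.31 in the Foxo arrays and at 10.46, 10.40 and 10.40 in the Mnt arrays. Its Foxo arrays were below the controls by 0.10 ± 0.05 on the log2 scale (adjusted p = 0.331), and just below the Mnt arrays, with -0.05 ± 0.05 (adjusted p = 0.602). The gaps were very small, with the array labelled Foxo 2 at 10.3968, control replicate 1 at 10.3984 and Mnt replicate 3 at 10.3998. eIF2D, which in human cells can deliver tRNA outside the usual route, lay at 8.19, 8.23 and 8.31 in the controls, at 8.05, 8.01 and 8.14 in the Foxo arrays and at 8.29, 8.24 and 7.94 in the Mnt arrays, with -0.18 ± 0.10 in Foxo versus control (adjusted p = 0.345) and -0.05 ± 0.11 with the testis score in the model. eIF6, which keeps the large subunit from joining too early, lay at 7.87, 8.03 and 8.07 in the controls, at 7.78, 7.84 and 7.88 in the Foxo arrays and at 7.93, 7.84 and 7.89 in the Mnt arrays, and its groups overlapped. eIF2A, described as an alternative carrier of initiator tRNA in mammals, had overlapping groups as well.

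Groups that did not overlap were counted over all 40. In Mnt versus control this held for 6 members, 5 lower (eIF1, eIF2Balpha, eIF3j, eIF4E1 and eIF5B) and 1 higher (eIF3k), against 8.91% of all genes, of which 5.24% lower and 3.67% higher. In Foxo versus control it held for 9, 4 higher and 5 lower, against 23.6% of all genes, of which 8.24% higher and 15.4% lower, so the share of members, 22.5%, was close to that of all genes. In Foxo versus Mnt it held for 6, 5 higher and 1 lower, or 15%, against 18.1% of all genes, of which 4.3% higher and 13.8% lower. The higher ones were eIF3d1, eIF3g1, eIF3j, eIF4E1 and eIF5B, with values between 0.09 for eIF3g1 and 0.17 ± 0.06 for eIF3j (adjusted p = 0.292). For eIF5B it was 0.17 ± 0.06 (adjusted p = 0.306) and for eIF4E1 0.13 ± 0.05 (adjusted p = 0.356). Without the array labelled Foxo 2 these were 0.12 for eIF3j, 0.13 for eIF5B and 0.17 for eIF4E1. With each array centred on its median they were 0.11, 0.11 and 0.07 in the same order. Their unadjusted limma p after centring was 0.085, 0.142 and 0.46. The comparison of Foxo with Mnt tests whether both effects differ, and 0 members passed it.

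Genes around the initiation factors were also examined. Of 25 regulators and partners of initiation 17 were measured, and 0 passed in any comparison, while at an unadjusted p under 0.05 the counts were 1 for Foxo against control, 0 for Mnt against control and 2 between them. These are 5.88%, 0% and 11.8% of the 17, beside 17.8%, 3.54% and 13.4% of all genes. Thor, the fly 4E-BP, was not analysed here. The lowest value was that of MCTS1, a reinitiation factor, at -0.26 ± 0.10 in Foxo versus control (adjusted p = 0.276), and the highest that of pAbp, the poly(A)-binding protein, at 0.13 ± 0.07 (adjusted p = 0.318). The same genes were lowest and highest in Foxo versus Mnt, at -0.29 ± 0.10 and 0.12 ± 0.07. In Mnt versus control they were bel, an RNA helicase, at -0.20 ± 0.09 and PEK, an eIF2alpha kinase, at 0.14 ± 0.08 (both adjusted p = 0.999). Of 11 elongation and termination factors 8 were measured and 0 passed. eRF1, which reads stop codons, lay at 10.10, 10.13 and 10.16 in the controls, at 10.25, 10.16 and 10.23 in the Foxo arrays and at 9.93, 9.86 and 9.92 in the Mnt arrays. Its Mnt arrays were below all controls and its Foxo arrays above them, with -0.23 ± 0.05 in Mnt versus control (adjusted p = 0.707) and 0.31 ± 0.05 in Foxo versus Mnt (adjusted p = 0.0658). The gap between Foxo and control was very small, with the array labelled Foxo 2 at 10.1624 and control replicate 3 at 10.161. The highest of this list against control was eEF1alpha2, an elongation factor, at 0.16 ± 0.10 in Foxo (adjusted p = 0.400) and 0.12 ± 0.10 in Mnt (adjusted p = 0.999). The lowest in Foxo was eEFSec, which delivers selenocysteine, at -0.17 ± 0.11 against control (adjusted p = 0.408) and -0.04 ± 0.11 against Mnt (adjusted p = 0.868). eEF5, the former eIF5A, whose symbol left it outside the rule, lay at 13.42, 13.49 and 13.35 in the controls, at 13.34, 13.46 and 13.40 in the Foxo arrays and at 13.47, 13.39 and 13.42 in the Mnt arrays, with overlapping groups.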

How the data were processed

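The deposited values are log2 signals of 18952 probe sets in 9 arrays, running from 2.62 to 14.84. Per the submitters' processing notes they were made with RMA, version not given. RMA draws the distributions of all arrays together, so a shift of most transcripts could be hidden, and the level of 1 probe set cannot be set against another's. The medians over all probe sets still ran from 5.70 in control replicate 3 to 5.95 in the array labelled Foxo 2. Arrays have no read depth, and 3 per group limit the precision.

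The 183 control probe sets were left out. The platform annotation pairs 13647 probe sets with 1 gene, and only these were named. Both probe sets shared by eIF4E7 and CG17010 named no gene. Of 46 initiation genes listed, eIF1A, eIF2alpha, eIF2gamma, eIF4AIII and eIF4H1 were not analysed here. No filter on dim signals was used.

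All 9 arrays entered 1 fit in limma 3.58.1 (R 4.3.3; lmFit, eBayes with an intensity trend) with 6 residual degrees of freedom. Tests were two-sided, with Benjamini-Hochberg adjustment over 11982 genes and a threshold of 0.05. Errors are moderated standard errors and intervals are at 95%. The fit was also run on simulated data with noise independent between genes, which does not show how it behaves where genes vary together.

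The members, lists and alternatives were chosen with earlier results of these data known. Named with each array's value were the 4 largest rises and falls per comparison among members whose groups did not overlap, gene copies, and the highest and lowest signal of each role. Of the other translation genes the highest and lowest per comparison were named. The slope on the testis score was added after the data were seen.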

Additional observations from a re-analysis of the deposited data

How the results depend on the processing

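Results were recomputed under 25 alternatives, which covered the samples in the fit, the covariates, the variance prior, the scaling, dim genes, probe sets and the threshold. The counts of 0 members called held in all alternatives but an unadjusted p under 0.05, where they were 8 for Foxo versus control, 4 for Mnt versus control, 4 for Foxo versus Mnt and 4 for the F test (12% of all genes). Centring each array on its median turned the median of Foxo versus control from 0.02 to -0.085, by the shift that this step gives all genes. With the testis score in the model the Foxo versus control values of eIF4E3 and eIF3f2 turned to -0.0343 and -0.0073, and with the accessory gland score as well to -0.0447 and -0.0166. The other 23 fold changes kept their sign in the 23 or 24 alternatives that gave each a value. The 4 slopes called became 8 when the groups were left out of that fit, and ranged from 2 to 5 with 1 array left out, the 2 being eIF4E3 and eIF4E5 without Mnt replicate 2 or 3. The share of all genes with a slope called was not counted in any alternative. The filters on the dimmest 20% and 40% of genes left out 1 and 6 members, and a restriction to probe sets not ending in _s_at or _x_at removed 5. Replicate numbers are shared between the groups, but the deviations of same-numbered arrays correlated from -0.70 to 0.11, and 2 of 9 arrays correlated best with their own number. The arrays were therefore not paired in the main fit. Differences in other tissues between arrays also enter these deviations, so the check cannot tell whether same-numbered arrays were processed together. With the replicate block the counts were 0 in each comparison, the 4 slopes called became 5, and the median of Foxo versus control was 0.02. The 5 genes that lay under the lower quartile of all genes in at least 1 array were eIF3f2 in 9, eIF4E7 in 6, eIF4H2 in 3, eIF4E5 in 2 and eIF3g2 in 1. Such signals may lie close to background, which was not measured here.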
